A study of Mus musculus with 6 samples.

Results

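T-box transcription factors share a DNA-binding domain, the T-box, and act as activators or repressors of genes that pattern embryonic mesoderm. Expression of 9 of them (Tbx1, Tbx2, Tbx3, Tbx4, Tbx5, Tbx6, Tbx15, Tbx18 and Tbx20) was measured in mouse Müllerian duct mesenchyme, the tissue around the embryonic duct from which oviduct and uterus form and which regresses in males under anti-Müllerian hormone (AMH). The 9 genes were taken by gene symbol from a table of 37991 gene identifiers. The male group was 3 libraries and the female group 3 libraries, all from embryos at embryonic day 14.5 on a mixed C57BL/6J x 129/SvEv background. Every embryo of both sexes carried 1 copy each of Amhr2Cre and R26R YFP, so cells with present or past Amhr2-Cre activity are labelled with YFP. That Cre is also known to be active in somatic cells of the gonads. Each library came from YFP-positive sorted cells pooled from 2 to 7 embryos, so an SD is a spread between pools. The male against female comparison sets mesenchyme exposed to AMH from the testis beside mesenchyme without it, and the series title places osterix (Sp7) downstream of that signal. AMH exposure goes with sex in these libraries, so its part cannot be told apart from other differences between the sexes.

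The family falls into pairs of close relatives. Tbx2 and Tbx3 are repressors that act in limb, heart and lung mesenchyme, where they hold back cell cycle inhibitors and keep cells from differentiating. Tbx2 lies next to Tbx4, and Tbx3 next to Tbx5, in the genome. Tbx4 and Tbx5 are activators that start limb and lung bud outgrowth, and Tbx15 and Tbx18 act in skeletal and ureter mesenchyme. Tbx1 acts in pharyngeal arches, Tbx6 in presomitic mesoderm and Tbx20 in the heart. Bone morphogenetic proteins (BMPs), whose SMAD proteins AMH signalling also uses, are known inducers of Tbx2, Tbx3 and Tbx20 in other tissues.

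Libraries held 22511872 to 24749859 counts in genes. Xist, which coats the silenced X chromosome, and the Y-linked genes Ddx3y, Eif2s3y, Kdm5d and Uty went with the labelled sex in all 6 libraries. The mesenchymal markers Pdgfra, Col1a1, Col3a1 and Vim were abundant. The summed level of 10 duct mesenchyme markers, mostly these genes, was 6805 to 7758 CPM (counts scaled to the library total) in male libraries and 5157 to 7674 CPM in female libraries. Members differed in direction, and none passed the threshold. Log2 fold changes, male over female, were negative for Hoxa10 (-1.16), Hoxa11 (-1.16), Emx2 (-1.28), Pdgfrb (-0.84), Amhr2 (-0.65) and Col3a1 (-0.03). They were positive for Pdgfra (1.07), Wnt5a (0.60), Vim (0.48) and Col1a1 (0.40). Sertoli cell markers, typical of the fetal testis, summed to 65.1 to 108.4 CPM in male libraries and 12.01 to 15.98 CPM in female libraries. Of 5 tested members, 3 had risen, where 0.841% of all tested genes were higher and 0.387% lower in male. Those that rose were Amh (log2 fold change 4.71, edgeR adjusted p = 0.0194), Sox9 (2.55, adjusted p = 0.0308) and Cst9 (6.44, adjusted p = 0.0226). Dhh (5.95, adjusted p = 0.0516) and Aard (1.07, adjusted p = 0.654) did not pass, and Dmrt1, at 0.344 CPM at most, was not tested. Smooth muscle markers summed to 107.8 to 266.5 CPM in male and 26.2 to 49.9 CPM in female libraries, and endothelial markers to 141.0 to 327.6 CPM in male and 47.3 to 93.4 CPM in female libraries, with none of 5 tested members past the threshold in either. Neuron and Schwann cell markers summed to 67.3 to 76.3 CPM in male and 15.2 to 29.8 CPM in female libraries, with 1 of 4 risen. Pregranulosa markers summed to 261.4 to 536.3 CPM in male and 89.9 to 178.8 CPM in female libraries, mostly Wnt4 (log2 fold change 1.96). The rest had negative log2 fold changes, Foxl2 (-2.34), Irx3 (-3.73) and Fst (-0.85). None of 4 was past the threshold. Kidney markers summed to 2.26 to 4.21 CPM in male and 5.58 to 14.3 CPM in female libraries, with none of 2 past it. The sums of the other lists overlapped between the sexes, and in that of duct epithelium 1 of 6 tested members fell, Epcam (log2 fold change -2.41, edgeR adjusted p = 0.0381). The part of these cell types in the T-box values was not tested. In such bulk samples fewer cells of a type and less RNA per cell cannot be told apart.

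The promoters shown are those of the RNAs Tbx3os1 and Tbx3os2, whose male and female libraries did not overlap although those of Tbx3 did, and of Tbx20, whose counts were all in male libraries. Each is 300 bases that span the start, most of them upstream, 5′ to 3′, from RefSeq on GRCm38.p6, a build other than that of the counts. Capitals mark GGCGCC, a GC-rich element to which SMAD proteins of the BMP branch can bind.
Tbx3os1, chr5:119671459-119671758, minus strand: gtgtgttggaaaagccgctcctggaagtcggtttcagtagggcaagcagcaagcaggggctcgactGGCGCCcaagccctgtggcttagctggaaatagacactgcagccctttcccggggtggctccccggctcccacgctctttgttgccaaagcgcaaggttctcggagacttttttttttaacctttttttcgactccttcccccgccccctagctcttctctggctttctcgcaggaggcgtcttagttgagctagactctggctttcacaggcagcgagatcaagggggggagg
Tbx3os2, chr5:119691169-119691468, minus strand: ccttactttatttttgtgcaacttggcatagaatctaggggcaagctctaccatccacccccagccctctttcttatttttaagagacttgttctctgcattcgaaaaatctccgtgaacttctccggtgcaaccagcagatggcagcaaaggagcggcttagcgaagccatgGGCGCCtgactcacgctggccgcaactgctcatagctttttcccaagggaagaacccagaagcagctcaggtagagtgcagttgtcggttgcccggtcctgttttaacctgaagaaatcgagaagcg
Tbx20, chr9:24774254-24774553, minus strand: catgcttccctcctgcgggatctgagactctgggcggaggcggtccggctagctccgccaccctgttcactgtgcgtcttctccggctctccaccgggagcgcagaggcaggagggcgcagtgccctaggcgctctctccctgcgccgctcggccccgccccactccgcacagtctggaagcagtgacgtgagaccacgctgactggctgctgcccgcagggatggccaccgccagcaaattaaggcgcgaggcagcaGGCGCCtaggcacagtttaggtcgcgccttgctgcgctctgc
RefSeq promoters of that length were matched for 5 of the 9 members. None was matched for Tbx2, Tbx3, Tbx5, Tbx15 or 2610027K06Rik, a non-coding RNA gene beside Tbx2, so these were not searched. The element, which reads the same on both strands, was found once in each promoter shown and in 11.9% of 32851 RefSeq promoters. It was not found in the promoters of Tbx1 (both starts), Tbx4, Tbx6 and Tbx18. The T-box core site AGGTGTGA, or TCACACCT on the other strand, was found in none of these promoters and in 1.28% of all. The promoters and both motifs were chosen after the expression values were seen, and a match in letters is not a bound site.

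Tbx2 and Tbx3 made up nearly all T-box RNA of the 9 genes. Per length, as CPM per kilobase of annotated exon, they formed 97.8% to 98.4% of the family sum in male libraries and 97.3% to 97.9% in female libraries. Tbx2 stood at 203.7 ± 72.5 CPM per kilobase in male and 76.7 ± 17.0 in female libraries (SD, n = 3 each), and Tbx3 at 46.1 ± 13.3 in male and 43.0 ± 10.2 in female libraries. Averaged over all 6 libraries, the level of Tbx2 per length exceeded that of 98.1% of 14674 tested genes with a length, and that of Tbx3 exceeded 92.1%.

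The next 3 members were far lower. Tbx1 had 2.52 ± 1.74 CPM per kilobase in male and 1.62 ± 0.706 in female libraries, Tbx4 1.04 ± 0.264 in male and 0.716 ± 0.119 in female, and Tbx6 0.935 ± 0.257 in male and 0.572 ± 0.254 in female. In male libraries the ranges of Tbx1, Tbx4 and Tbx6 overlapped. In female libraries Tbx4 and Tbx6 overlapped, and the lowest Tbx1 value, 0.909, lay just above the highest Tbx4 value, 0.853. The step from Tbx3 to Tbx1 did not overlap in any library, and neither did the step from Tbx2 to Tbx3. Tbx15, Tbx18, Tbx20 and Tbx5 were each under 0.05 CPM per kilobase on average in both sexes.

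**Figure D1:**
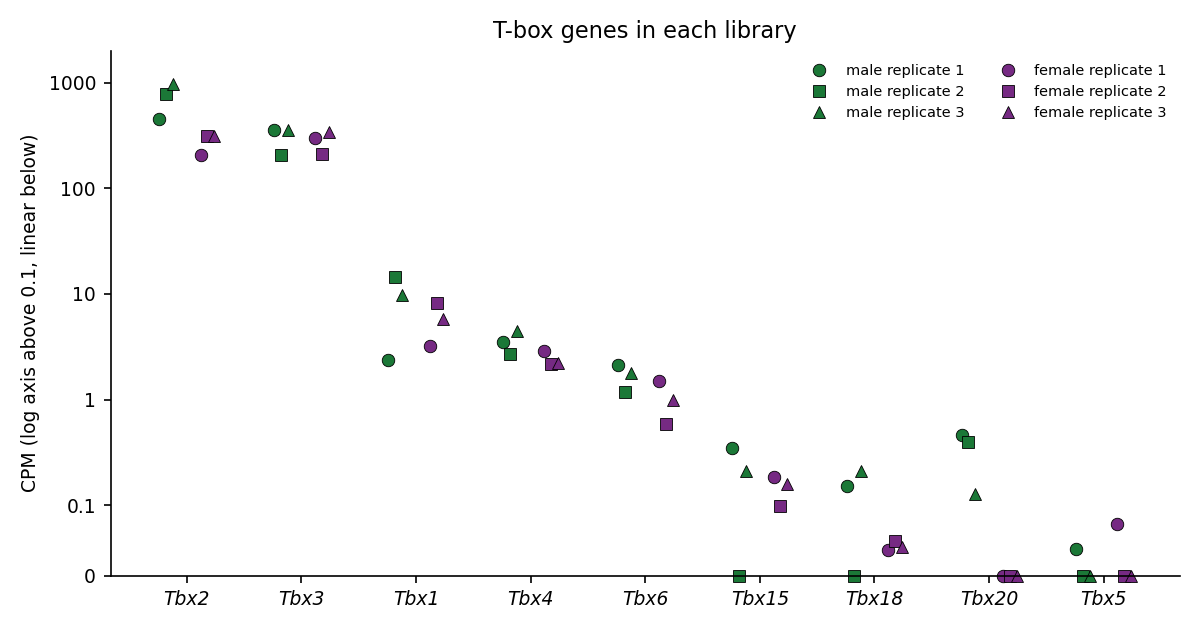
CPM of the 9 T-box genes in each library on a log axis above 0.1 and a linear axis below it, with male libraries left of female libraries and 1 symbol per replicate number. Tbx2 and Tbx3 lie between 204.2 and 976.9 CPM, Tbx1, Tbx4 and Tbx6 between 0.590 and 14.5 CPM, and the other 4 genes below 0.5 CPM.

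Tbx2 was the member with the largest difference among those tested. It had 456.4, 782.9 and 976.9 CPM in male libraries 1 to 3, against 207.1, 313.6 and 313.5 CPM in female libraries 1 to 3. Every male library was above every female library, and replicate 1 was the lowest in each sex. The log2 fold change, male over female, was 1.41 (SE 0.42), which is 2.66-fold. By the quasi-likelihood test of edgeR over 15227 genes it missed the threshold of 0.05 (p = 0.0121, edgeR adjusted p = 0.243), and an exact two-sided permutation test of the CPM gave p = 0.1, the smallest value that 3 against 3 libraries allow.

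None of the 5 members tested (Tbx1, Tbx2, Tbx3, Tbx4 and Tbx6) was called by edgeR, where 1.23% of all tested genes were, and the smallest absolute log2 fold change among those called genes was 1.93. At an unadjusted p under 0.05, 1 of the 5 passed, where 9.18% of all genes did. The groups did not overlap for 1 of the 5, and for 13.7% of all genes tested. DESeq2, an alternative test, called Tbx2 higher in male (log2 fold change 1.44, SE 0.45, adjusted p = 0.0301), where it called 5.06% of all genes. An edgeR fit with an offset for transcript GC content and length called it too (log2 fold change 1.19, SE 0.25, adjusted p = 0.0374), where it called 5.94% of all genes. With limma-voom, which called 1.43%, Tbx2 missed the threshold (adjusted p = 0.236). Tbx2 transcripts are rich in GC, at 63.2%.

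Tbx3, the close relative of Tbx2, had similar ranges in both sexes. It had 355.2, 204.2 and 357.3 CPM in male libraries 1 to 3 and 300.9, 210.7 and 343.2 CPM in female libraries 1 to 3. The groups overlapped throughout, and replicate 2 was the lowest in each sex. The log2 fold change was 0.10 with SE 0.38 (adjusted p = 1.0, edgeR), which does not show that the levels are equal.

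The ratio of the relatives was compared within each library. Per length, the level of Tbx2 was 2.35, 7.00 and 4.99 times that of Tbx3 in male libraries 1 to 3, and 1.26, 2.72 and 1.67 times in female libraries 1 to 3. A ratio within a library does not depend on its scaling. The groups overlapped, since female replicate 2 was above male replicate 1, and the log2 ratio averaged 2.12 ± 0.807 in male and 0.837 ± 0.563 in female libraries (SD, n = 3 each; exact two-sided permutation p = 0.2). With the GC and length offset, the log2 fold change of Tbx3 was 0.08 (SE 0.38) beside 1.19 for Tbx2.

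**Figure D2:**
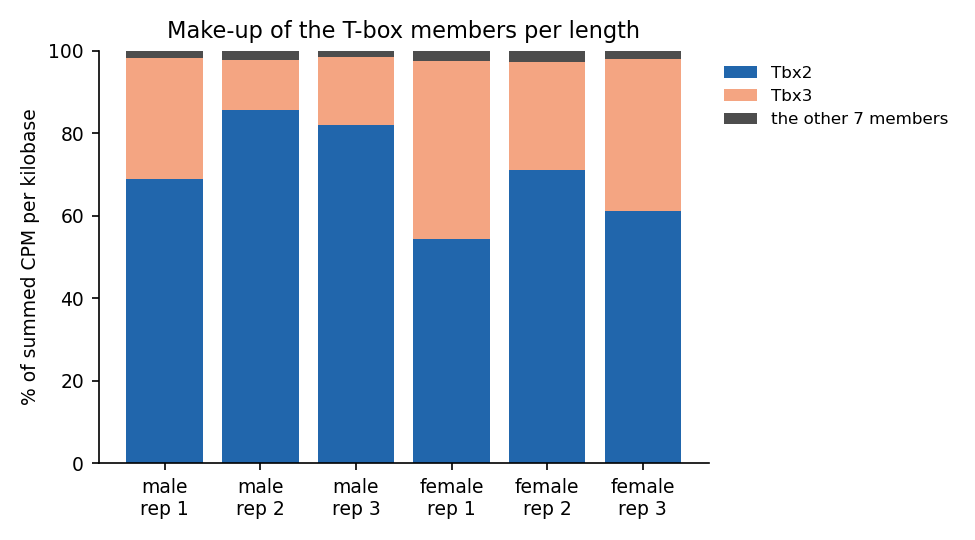
Stacked bars give the share of Tbx2, Tbx3 and the other 7 members in the summed CPM per kilobase of the 9 T-box genes, 1 bar per library, male libraries left. Tbx2 takes 69.0% to 85.6% in male libraries and 54.3% to 71.1% in female libraries, and the other 7 members stay a thin band.

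**Figure D3:**
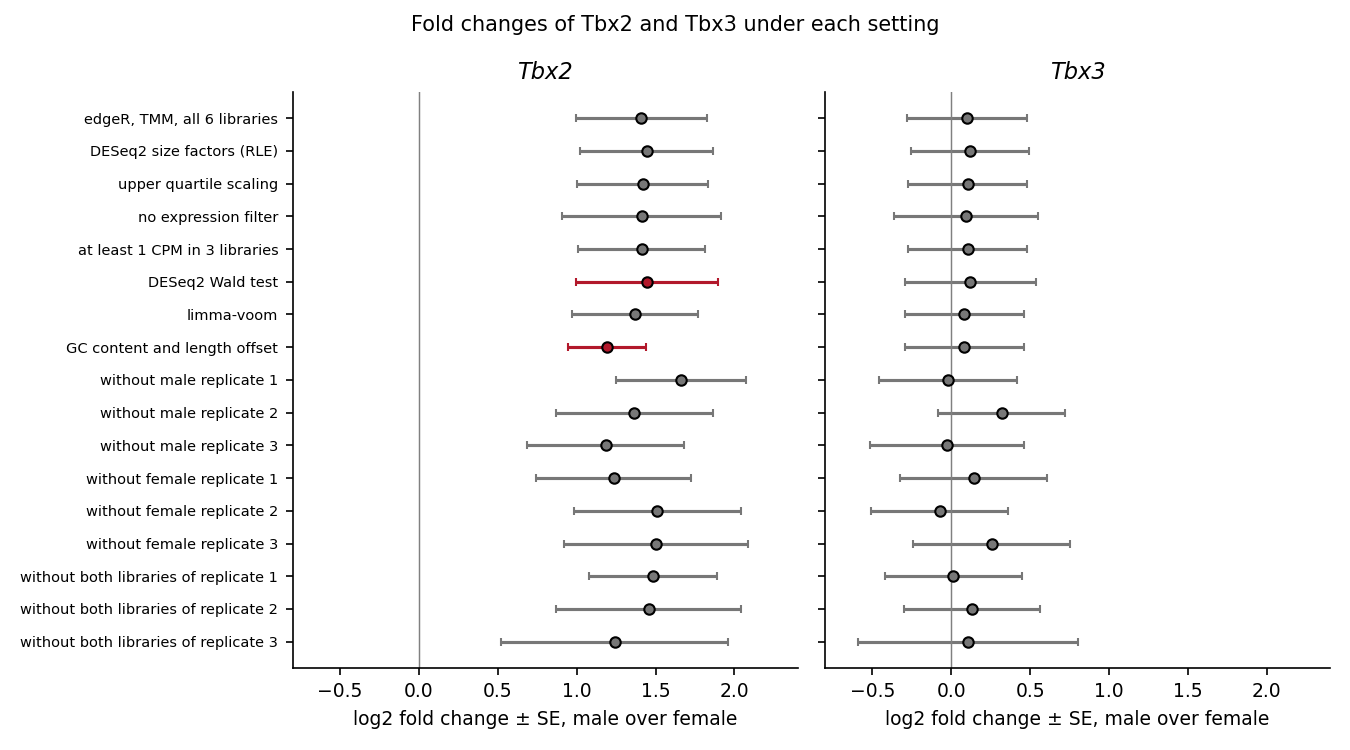
Log2 fold change of Tbx2 and Tbx3, male over female, with its SE, under the fit of the report and under other settings. The settings with a replicate block, where Tbx2 was called, are not drawn. Red points have an adjusted p under 0.05. Tbx2 lies between 1.18 and 1.66 in all settings drawn and Tbx3 between -0.07 and 0.32.

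RNAs annotated next to both genes on the opposite strand were also measured. They were added after their values were seen, so their being apart between the sexes is no test. The groups were also apart for 13.7% of all tested genes. 2610027K06Rik, a non-coding transcript that lies within 5000 bases of Tbx2, on the opposite strand and without overlap in the annotation, had 11.2, 9.99 and 10.9 CPM in male libraries 1 to 3, against 4.34, 3.69 and 3.28 CPM in female libraries 1 to 3. The groups did not overlap. Its log2 fold change was 1.503 with SE 0.32 (adjusted p = 0.0956, edgeR), close in size to that of Tbx2 and likewise not past the threshold.

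Beside Tbx3, whose sexes overlapped, both RNAs were apart between the sexes. Tbx3os1, an antisense RNA that overlaps exons of Tbx3, had 36.6, 33.9 and 34.8 CPM in male libraries and 18.6, 15.3 and 13.3 CPM in female libraries. Tbx3os2, a non-coding RNA within 5000 bases of Tbx3, had 5.35, 5.24 and 6.15 CPM in male and 1.40, 2.999 and 1.28 CPM in female libraries. Neither overlapped between the sexes, as was so for 13.7% of all tested genes. Their log2 fold changes were 1.16 (SE 0.30, edgeR adjusted p = 0.176) and 1.56 (SE 0.45, edgeR adjusted p = 0.226), not past the threshold. DESeq2, which called 5.06% of all genes, called all 3 RNAs higher in male. Its adjusted p was 0.00061 for 2610027K06Rik, 0.0110 for Tbx3os1 and 0.0276 for Tbx3os2. The edgeR fit with the GC and length offset called none of them (adjusted p = 0.109, 0.223 and 0.0591 in the same order), and neither did limma-voom (adjusted p = 0.0911, 0.169 and 0.166).

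The library kit does not mark strand, and the strandedness of counting is unnamed. Reads that fitted several genes went into a summary line, which was left out. If counting ignored strand, reads from the stretch that Tbx3 and Tbx3os1 share are in neither count. If counting used strand, reads of the 2 genes from that stretch cannot be told apart. In the former case the level of Tbx3 per length, which divides by all its exon bases, could be too low. The Tbx2 to Tbx3 ratios could then be too high. The size of this was not tested. The counts of Tbx3os1 came to 10.3%, 16.6% and 9.75% of those of Tbx3 in male libraries 1 to 3, against 6.18%, 7.26% and 3.88% in female libraries 1 to 3, with no overlap (exact two-sided permutation p = 0.1, the smallest possible).

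**Figure D4:**
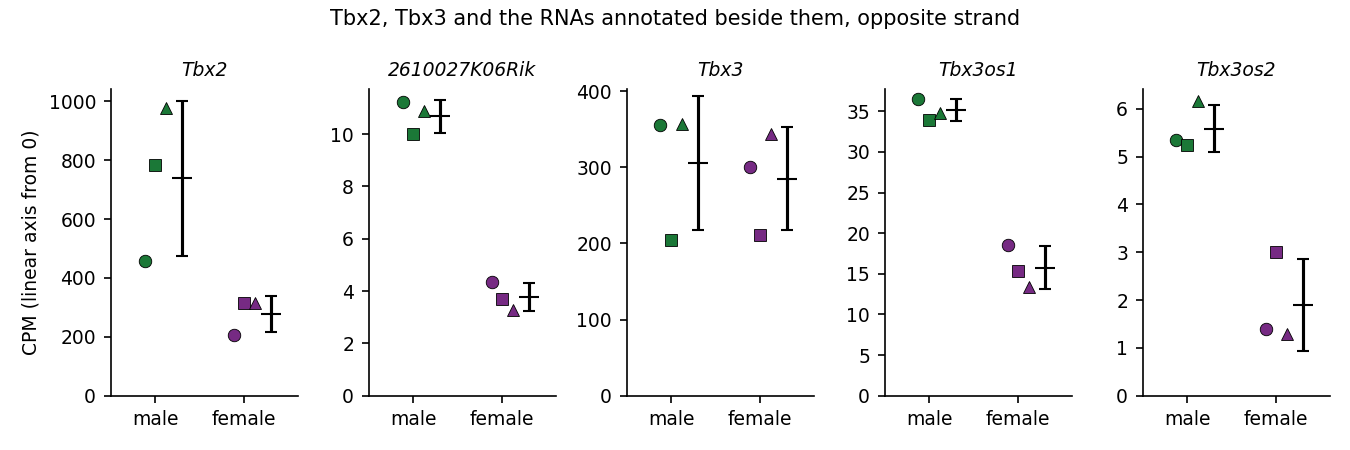
CPM on linear axes from 0 for Tbx2, Tbx3 and the 3 RNAs annotated beside them on the opposite strand, male left of female, with 1 symbol per replicate number and mean ± SD (n = 3) as a bar. The sexes are apart for every gene shown but Tbx3, and for 13.7% of all tested genes.

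The genes whose profile over the 6 libraries lay closest to that of Tbx2 were Mvp, Tfr2 and Hspa2. Their centred log2 CPM differed from that of Tbx2 by a root mean square of 0.156, 0.163 and 0.168, where the median over 15226 tested genes was 0.932. Hspa2, a heat shock protein gene, had 22.0, 30.9 and 33.1 CPM in male and 8.19, 13.3 and 11.0 CPM in female libraries. None of the 3 was called, with edgeR adjusted p = 0.468 for Mvp, 0.421 for Tfr2 and 0.162 for Hspa2.

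Tbx1, Tbx4 and Tbx6 were detected at low levels in both sexes. Tbx1 had 2.37, 14.5 and 9.78 CPM in male libraries 1 to 3 and 3.20, 8.16 and 5.76 CPM in female libraries 1 to 3. The sexes overlapped, replicate 1 was the lowest in each, and Tbx1 transcripts have 62.8% GC. The log2 fold change was 0.64 with SE 0.69 (adjusted p = 1.0, edgeR), and 0.25 (SE 0.33) with the GC and length offset.

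Tbx4, the gene next to Tbx2, had 3.52, 2.67 and 4.47 CPM in male and 2.90, 2.16 and 2.24 CPM in female libraries. Tbx6 had 2.10, 1.19 and 1.77 CPM in male and 1.51, 0.590 and 1.0002 CPM in female libraries. Both overlapped between the sexes, and replicate 2 was the lowest library in each sex. Their log2 fold changes were 0.54 (SE 0.38) for Tbx4 and 0.70 (SE 0.48) for Tbx6, both with edgeR adjusted p = 0.988. All 5 tested members had a positive log2 fold change, with a median of 0.64, where the median of all tested genes was -0.01; that of Tbx3 was negative without male replicate 1, male replicate 3 or female replicate 2.

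Tbx5, Tbx15, Tbx18 and Tbx20 did not pass the filter on low counts and were not tested in that fit. Tbx20 was counted in male libraries alone, at 12, 8 and 3 counts in male libraries 1 to 3 and 0 in each female library. With 3 counts over the female group taken as a floor, the male rate of Tbx20 was 7.93 times that floor. The exact 95% interval of the ratio, from the counts themselves, reached down to 5.95. The value against the floor was 4.96 without female replicate 1 and 5.20 without female replicate 3, since fewer female libraries then stood behind the 3 counts. With no filter on low counts, Tbx20 had an edgeR adjusted p = 0.143 (unadjusted p = 0.00237), not past the threshold. Its CPM gave an exact two-sided permutation p = 0.1, the smallest possible.

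Tbx18, known from ureter mesenchyme and mesothelium, had 4, 0 and 5 counts in male libraries and 1 in each female library. The ratio of male to female rate was 3.10, with an exact 95% interval of 0.775 to 17.8. Tbx15 had 9, 0 and 5 counts in male libraries and 5, 2 and 4 counts in female libraries, a ratio of 1.32 (0.555 to 3.21). Tbx5 was nearly silent, with 1 count over the 3 male libraries and 2 counts over the 3 female libraries, both at or under the 3 counts taken as the floor. That floor is 0.0428 CPM over the male group and 0.0413 CPM over the female group. These intervals and floors cover counting error only.

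The table held 8 further T-box genes. Mga, which pairs a T-box with a domain that binds MAX, was the only one of these 8 to pass the low-count filter. It had 250.1, 47.1 and 43.7 CPM in male libraries 1 to 3 and 263.1, 26.9 and 111.5 CPM in female libraries 1 to 3, with replicate 1 the highest in each sex. Its log2 fold change was -0.24 with SE 0.98 (adjusted p = 1.0, edgeR), and 0.12 with the GC and length offset; Mga transcripts have 42.2% GC. The other 7 (T, Eomes, Tbr1, Tbx10, Tbx19, Tbx21 and Tbx22) had at most 6 counts in any library and were not tested.

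Genes known to act with or under T-box factors were described by lists, without a list test. The lists were chosen with earlier results of these data known, so their counts of called members are no evidence of an excess. Of 20 partners and cofactors, 15 were tested and 2 rose, Msx2 and Gata5, where 0.841% of all tested genes were higher in male. Msx2, a homeobox repressor that binds Tbx2 and Tbx3 in the heart, had 158.8, 209.6 and 260.2 CPM in male and 1.87, 3.15 and 2.08 CPM in female libraries, which is 6.47 as a log2 fold change with SE 0.46 (adjusted p = 0.0091, edgeR). Gata5, a zinc finger factor of the heart, had 97.1, 213.7 and 196.8 CPM in male and 1.29, 2.36 and 2.48 CPM in female libraries, which is 6.37 as a log2 fold change with SE 0.56 (adjusted p = 0.0145, edgeR). The other 13 tested partners did not pass, and none of the 15 fell. The median log2 fold change of the partners was 0.53.

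Of 22 reported T-box targets, 14 were tested, 1 rose and 1 fell. Of all tested genes, 0.841% were higher and 0.387% lower in male. Both encode inhibitors of WNT signalling, and both genes are known to be repressed by Tbx2 and Tbx3 in lung mesenchyme. Shisa3 had 31.0, 12.4 and 19.0 CPM in male and 2.17, 0.787 and 1.72 CPM in female libraries, which is 3.73 as a log2 fold change with SE 0.58 (adjusted p = 0.0402, edgeR). Frzb had 4.74, 3.06 and 3.92 CPM in male and 15.7, 15.6 and 16.4 CPM in female libraries, which is -2.02 as a log2 fold change with SE 0.34 (adjusted p = 0.0478, edgeR). The median of the target list was -0.47, and 12 tested members did not pass.

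Of 8 genes that act upstream of T-box genes elsewhere, 6 were tested and 1 fell, where 0.387% of all tested genes were lower in male. Bmp7, a BMP ligand, had 11.9, 21.6 and 17.4 CPM in male and 104.2, 136.1 and 120.5 CPM in female libraries, which is -2.82 as a log2 fold change with SE 0.37 (adjusted p = 0.0253, edgeR). Bmp2 and Bmp4, further ligands, were not past the threshold, with log2 fold changes of 0.13 (SE 0.42) and -1.07 (SE 0.52). The median of this list was -0.25.

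These calls were lost in part when 1 library was left out. Frzb was not called when any 1 of the 6 libraries was left out, nor with no filter on low counts (adjusted p = 0.0712), and Bmp7 and Shisa3 were not called without male replicate 2 or 3 or any 1 female library. Gata5 was not called without male replicate 2 or 3 or female replicate 2 or 3, and Msx2 without male replicate 3 or female replicate 3. The log2 fold changes lay between 6.19 and 6.73 for Msx2, 6.12 and 6.65 for Gata5, 3.32 and 4.04 for Shisa3, -2.20 and -1.88 for Frzb and -3.04 and -2.62 for Bmp7 over all 18 alternative settings. Over all genes, omissions of 1 library left 0 to 14 calls, against 187 with all 6 libraries, other than that of male replicate 1, which left 173.

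**Figure D5:**
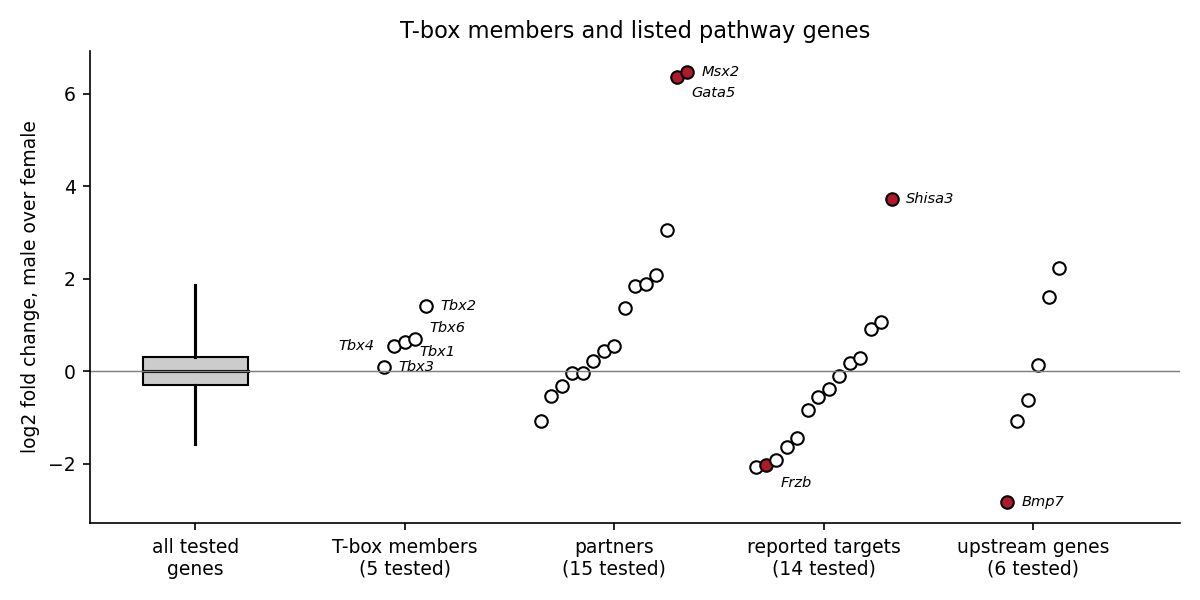
Log2 fold change, male over female, of the tested T-box members, partners, reported targets and upstream genes, beside all 15227 tested genes as a box (percentiles 25 and 75) with whiskers that span the middle 95% from -1.58 to 1.87. Red points passed the threshold, and all 5 members are open points inside the whiskers.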

How the data were processed

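The authors deposited raw counts for each Ensembl gene, 1 library per file; 5 summary lines without a gene were left out. Per the submitters' processing notes, TopHat, HTSeq, DESeq and the build mm9 were used, with no versions or roles; the annotation release and strandedness of counting are unnamed there. Per the labels' protocols, TruSeq v2 libraries were read as paired 76-base reads. Counts outside genes were 3.53% to 18.2% of uniquely placed counts and counts on more than 1 gene 6.51% to 10.0%.

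Names, lengths, GC content and neighbours came from an annotation on GRCm38; 32919 of 37991 identifiers had a symbol. Genes were filtered by filterByExpr, scaled with TMM factors and compared by edgeR 4.0.16 in R 4.3.3 (robust two-sided quasi-likelihood test with a single term for sex, Benjamini-Hochberg over 15227 genes, threshold 0.05). Each SE was taken as the size of the log2 fold change divided by the root of its F statistic. CPM uses TMM-scaled library sizes; means are given ± SD. DESeq2 1.42.0, limma-voom (limma 3.58.1), other scalings and filters, a GC and length offset (splines with 5 degrees of freedom per library; 96.4% of tested genes had a value), a replicate block and left-out libraries were alternatives. The labels call the replicates biological.

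Members and lists were chosen with earlier results of these data known. All 9 members are named, and of each other list up to 4 called members, or, with none called, that with the smallest p. The 3 genes closest in profile to Tbx2, the member with the smallest p, follow a rule set with the lists. The RNAs beside Tbx2 and Tbx3, the promoters, Bmp2, Bmp4 and the cell type values given were named after their values were seen.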

Additional observations from a re-analysis of the deposited data

Results flagged for a closer look

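Counts outside annotated genes went into no comparison here. Their share of uniquely placed counts was 18.2%, 5.45% and 5.5% in male replicates 1 to 3 and 17.5%, 3.53% and 8.65% in female replicates 1 to 3. With no control library the only yardstick is a count of 0, which any such share passes.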

How the results depend on the processing

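For T-box members called, edgeR gave 0 in all single-library omissions (from 0 to 0) and in all scalings and filters, with at most 2 at an unadjusted p under 0.05, and limma-voom gave 0 too. The call was Tbx2, 1 member each, with DESeq2, the GC and length offset, a replicate block, and both together. Over all genes, DESeq2 called 771, the offset 905 and omission of both libraries of replicate 1, 2 or 3 left 354, 0 and 0 (1103 and 455 at an unadjusted p under 0.05 for the 0s, edgeR). Omitting 1 library left 0 to 173: 173 without male replicate 1, 7 and 0 without male replicates 2 and 3, and 14, 5 and 0 without female replicates 1 to 3, with 938 and 884 genes at an unadjusted p under 0.05 in the 0s. The cause was not tested. The labels do not say that equal replicate numbers mark paired samples, and the main fit had no term for them. Deviations of same-numbered male and female libraries correlated over genes at 0.927, 0.852 and -0.069 for numbers 1, 2 and 3. Those of male 2 with female 1 and of male 1 with female 2 correlated at -0.851 and -0.913. Whether the samples are paired is not settled by these values. Of the samples, those of number 3 did not correlate best with their own number. With a replicate block 4164 genes were called, and 4418 with the block and the offset; Tbx2 then had adjusted p = 1.2e-12 and 1.79e-05. The log2 fold change of Tbx3 lay between -0.073 and 0.32 when 1 library was left out. That of Mga lay between -1.56 and 0.72 then, and was 0.12 with the offset and 0.13 with offset and block. Directions of the other 4 tested members held in all 18 settings.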
